A study of Mus musculus with 2 samples.

Results

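The nuclear genes of oxidative phosphorylation were examined by DNase-seq, an assay in which the enzyme DNase I cuts accessible chromatin, in 2 libraries of hippocampal tissue. The genes were the GENCODE protein-coding records on chromosomes 1 to 19 whose symbols name subunits of the 5 complexes (the Nduf a, b, c, s and v series, the Sdh, Uqcr and Atp5 genes, and Cox4 to Cox8). They were 82 of 20807 autosomal protein-coding records: 35 for complex I, 4 for complex II, 8 for complex III, 17 for complex IV and 18 for complex V. Atp5o appeared as a pair of records, one of them a longer record of 242585 bp. Of the records, 2 had symbols that the name rule admitted although their products are not subunits (Cox7a2l, a factor that joins complexes into supercomplexes, and Atp5s). Another 3 genes with matching symbols, on the X chromosome, were outside the rule. All comparisons below are with all 20807 records, which include the 82.

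Both libraries came from B6CASTF1/J mice (the F1 hybrid of C57BL/6J and CAST/EiJ), 25 days old and labelled male. The labels name the tissue as a layer of hippocampus and give no treatment, so the design held 1 group of 2 libraries and no contrast between conditions. The libraries are numbered as biological replicates 1 and 2 and carry the same donor entry, so their spread may not be the spread between animals. The files list peaks (regions of dense cutting), footprints (short protected stretches within cut regions) and bases with a false discovery rate (FDR) under 0.05.

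The lists held 93545 peaks over 23.3 Mb and 223251 footprints in replicate 1, and 79144 peaks over 18.04 Mb and 170016 footprints in replicate 2. The number of cuts behind a value is unknown. Promoters of 4 of 5 hippocampal neuron markers had a peak in both libraries, as did 1 of 2 interneuron, 2 of 3 astrocyte and 1 of 3 oligodendrocyte markers. None of 3 microglial markers, 2 endothelial markers or 3 markers of other tissues did. Both libraries had Y-chromosome peaks (40 in replicate 1 and 39 in replicate 2), but the Xist promoter had 0 peaks in replicate 1 and 3 in replicate 2, with a highest value of 1.01. The library labelled male as replicate 2 thus carried an open promoter of Xist, the RNA that silences an X chromosome in female cells, which goes against its label. The genes described here are autosomal, and each library's value is given separately throughout.

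Oxidative phosphorylation makes most of the ATP of neurons, whose synapses use it heavily. Complexes I and II pass electrons from NADH and succinate to ubiquinone, complex III passes them to cytochrome c, complex IV passes them to oxygen, and complex V, the ATP synthase, uses the resulting proton gradient. Most of the subunits are encoded in the nucleus, and the rest in mitochondrial DNA, so the nuclear set is regulated apart from its partners. Factors known for binding these nuclear promoters are NRF1, the ETS factor GABP (NRF2), YY1, the SP factors, CREB and the estrogen-related receptors (ERR), with the PGC-1 coactivators.

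The sequences at which these factors could bind are shown first, because the promoter results refer to them. They are the reference strand of C57BL/6J (GRCm38.p6, the same build as mm10), written 5′ to 3′ along the gene's own strand, for promoters with a start in the RefSeq promoter table. Capitals mark bases that lay in a footprint in both libraries. The first set holds matches to the NRF1 word GCGCANGCG, which had the most members with a footprinted match. In the text, distances run from the nearest annotated transcription start site (TSS), negative upstream.
Ndufs5, chr4:123718240-123718319, strand -: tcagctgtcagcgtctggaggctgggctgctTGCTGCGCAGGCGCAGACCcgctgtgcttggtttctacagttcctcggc
Ndufb4, chr16:37654515-37654594, strand -: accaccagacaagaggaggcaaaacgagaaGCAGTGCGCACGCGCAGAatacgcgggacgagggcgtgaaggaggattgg
Atp5g2, chr15:102670939-102671018, strand -: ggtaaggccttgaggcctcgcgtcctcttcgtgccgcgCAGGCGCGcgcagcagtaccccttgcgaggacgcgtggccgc
At Ndufs5 (complex I) the match lay 78 bp upstream and at Ndufb4 (complex I) 102 bp upstream, and the capitals cover the whole word at both. At Atp5g2, one of 3 genes for the rotor subunit c of the ATP synthase, the match lay 148 bp downstream and the footprint covered part of it.

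The second set shows one example each of the other kinds of match: the cyclic-AMP response element at Ndufb2 (TGACGTCA), the NF-Y word CCAAT with an SP-type GC box at Atp5b, an ETS word (CCGGAAG) beside an unprotected YY1 word (AAGATGGC) at Atp5j, and a YY1 word read on the reverse strand at Atp5g2.
Ndufb2, chr6:39592515-39592594, strand +: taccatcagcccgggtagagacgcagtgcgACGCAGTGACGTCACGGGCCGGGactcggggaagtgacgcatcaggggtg
Atp5b, chr10:128083194-128083273, strand +: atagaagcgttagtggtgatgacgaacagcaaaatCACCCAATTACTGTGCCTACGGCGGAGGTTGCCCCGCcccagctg
Atp5j, chr16:84835021-84835100, strand -: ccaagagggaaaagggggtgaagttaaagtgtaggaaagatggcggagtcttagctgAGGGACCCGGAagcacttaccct
Atp5g2, chr15:102670784-102670863, strand -: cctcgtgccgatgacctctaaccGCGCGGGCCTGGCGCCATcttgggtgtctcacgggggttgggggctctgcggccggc
At Ndufb2 the match lay 20 bp upstream, inside a footprint in both libraries. At Atp5b, the catalytic beta subunit, the CCAAT match lay 39 bp upstream, and a GC-box match at 9 bp upstream was also footprinted. At Atp5j, coupling factor F6, the ETS match lay 29 bp upstream and the YY1 match 55 bp upstream. The Atp5j window is shared with Gabpa, which encodes the DNA-binding subunit of GABP and starts 93 bp away on the other strand.

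The third set shows matches to the ERR word AAGGTCA, which read as TGACCTT on these strands and lay outside footprints shared by the libraries.
Atp5g3, chr2:73911335-73911414, strand -: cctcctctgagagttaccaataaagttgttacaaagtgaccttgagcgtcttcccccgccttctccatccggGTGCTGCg
Sdhd, chr9:50603770-50603849, strand -: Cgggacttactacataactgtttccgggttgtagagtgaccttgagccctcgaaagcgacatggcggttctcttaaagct
Uqcr10, chr11:4704094-4704173, strand -: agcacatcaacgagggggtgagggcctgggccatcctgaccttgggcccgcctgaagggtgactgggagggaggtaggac
The Atp5g3 match lay 49 bp upstream, the Sdhd match 2 bp downstream and the Uqcr10 match 81 bp upstream. The lower-case letters through all 3 words are the data: no base of them was footprinted in both libraries.

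Almost all subunit genes had open promoters. A promoter peak, defined as a peak that touched the stretch from 1.0 kb before to 1.0 kb after any annotated TSS, was present in both libraries at 75 of 82 records (91.5%), against 63.9% of all genes. No record had a peak in only 1 library. With the authors' shorter peak list 73 records had one in both libraries, against 58.4% of all genes. A promoter footprint was present in both libraries at 74 records, against 62.4% of all genes. Leaving out members that share a promoter window with another protein-coding gene left 41 with a promoter peak in both libraries among 47, against 59.1% of all genes that share none.

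The 7 records without a promoter peak were Cox4i2, Cox6a2, Cox7b2, Cox8b, Cox8c, Ndufa4l2 and the longer record of Atp5o. None of them had a base with FDR under 0.05 in its promoter window in either library. Cox6a2 and Cox8b are the heart and skeletal muscle isoforms of their subunits, Cox4i2 is known from lung, and Cox7b2 and Cox8c from testis. Ndufa4l2 is known to be induced by hypoxia. The 2 remaining tissue-restricted isoforms had the lowest open promoters of the set. Cox6b2, known from testis, had a value of 0.558 in replicate 1 and 0.709 in replicate 2. Cox7a1, the muscle and brown fat isoform, had 0.6996 in replicate 1 and 0.715 in replicate 2. Cox6b2 was also the one open member with no footprint in replicate 1, and it had 2 in replicate 2.

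The broadly expressed counterparts that the rule admits were open in both libraries (that of Cox7b2 is X-linked and was not analysed). Cox4i1 had 1.87 in replicate 1 and 2.26 in replicate 2. Cox6a1 had 3.10 and 3.36, Cox7a2 had 2.22 and 2.17, and Cox8a had 2.73 and 2.58 in replicates 1 and 2. Cox6b1 was lower, with 1.36 and 1.17, but lay above both libraries' values of Cox6b2. Ndufa4, a protein now counted with complex IV, had 3.36 and 2.72. In each of these pairs the broad isoform was above the restricted one in both libraries, with no overlap, within the 1.0 kb window. For Ndufa4 and Ndufa4l2 this depends on the window. Upstream of its window Ndufa4l2 had a peak with 3.05 in replicate 1 and 3.76 in replicate 2. The 3 subunit c genes, which encode one mature protein, were all open: Atp5g2 had 4.15 and 3.16, Atp5g1 had 2.99 and 1.99, and Atp5g3 had 2.97 and 2.46. Atp5g2 lay above Atp5g1 and Atp5g3 in both libraries.

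**Figure D1:**
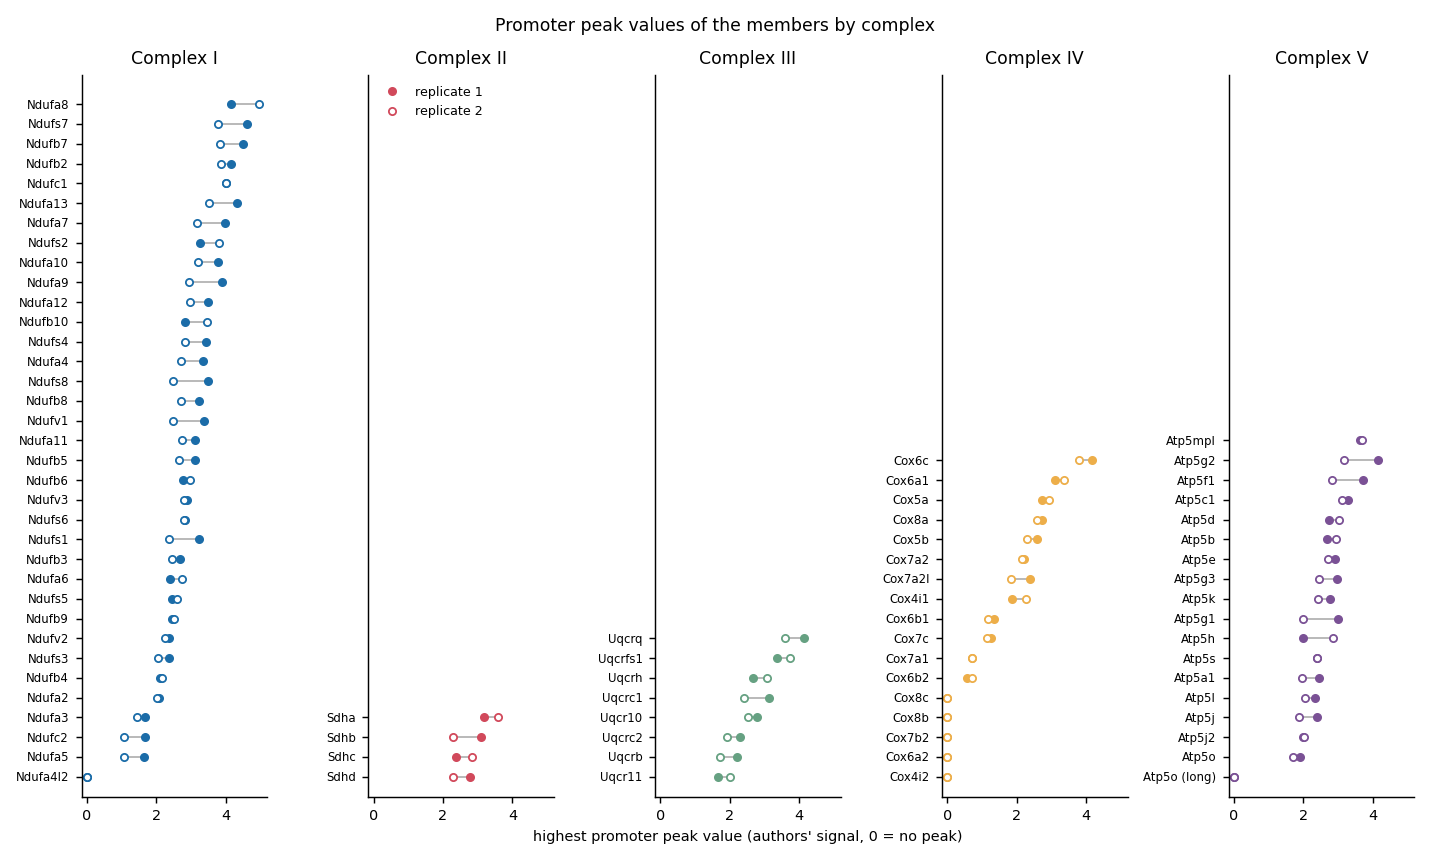
Highest promoter peak value of each of the 82 records, in the authors' signal units, by complex; filled points are replicate 1 and open points replicate 2, and 0 means no promoter peak. The 7 records at 0 include 5 complex IV isoforms, and the lowest open members, Cox6b2 and Cox7a1, are complex IV isoforms as well.

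The promoter peak value is the authors' signal at a peak, and the highest one in the window was taken for each gene. Over members open in both libraries the median was 2.78 in replicate 1 and 2.59 in replicate 2, against 2.26 in replicate 1 and 2.15 in replicate 2 over all open genes. As the mean of the libraries' medians this was 2.68 ± 0.13 for the members and 2.20 ± 0.08 for all genes (SD, n = 2). The gap exceeded the spread between the libraries, and a design of 1 group allows no test of it. Above the all-gene median in both libraries were 52 of the 75 open members (69.3%), against 44.4% of all open genes. The members did not hold the highest promoter values of the tissue. Their highest values were 4.63 in replicate 1 and 4.96 in replicate 2, whereas single genes reached 9.36 in replicate 1 and 11.4 in replicate 2. Above the upper quartile of all open genes were 30 members in replicate 1 and 25 in replicate 2, and below the lower quartile were 4 in replicate 1 and 6 in replicate 2.

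Complex I, the NADH dehydrogenase, had the highest medians, 3.18 in replicate 1 and 2.74 in replicate 2 over 34 open members. Ndufa8, an accessory subunit, had 4.16 in replicate 1 and 4.96 in replicate 2, a mean of 4.56 ± 0.56 (SD, n = 2). Ndufs7, the core subunit that holds the terminal iron-sulfur cluster, had 4.63 in replicate 1 and 3.79 in replicate 2, with its strongest peak in replicate 1 at chr10:80248961-80249540, across the start of the gene. Ndufb7, an accessory subunit, had 4.51 in replicate 1 and 3.84 in replicate 2. Ndufa8 and Ndufs7 changed places between the libraries, so their order is within the spread. The lowest open member was Ndufa5, with 1.65 in replicate 1 and 1.08 in replicate 2. Ndufc2 had almost the same values, 1.67 and 1.08. The ranges of these 2 accessory subunits did not overlap those of the top genes, as is likely for genes from opposite ends of one ranking.

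Complex II, succinate dehydrogenase, also works in the citric acid cycle and has no mitochondrially encoded subunit. Sdha, the flavoprotein that oxidises succinate, had 3.17 in replicate 1 and 3.59 in replicate 2. Sdhb, the iron-sulfur subunit, had 3.10 in replicate 1 and 2.28 in replicate 2. The membrane anchors Sdhc and Sdhd had 2.38 and 2.77 in replicate 1, and 2.84 and 2.29 in replicate 2. Sdha was highest in both libraries, and the other three did not keep their order.

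All 8 complex III genes were open, with medians of 2.73 in replicate 1 and 2.46 in replicate 2. Uqcrq, a small subunit, led with 4.13 in replicate 1 and 3.58 in replicate 2. Uqcrfs1, the Rieske iron-sulfur protein, had 3.36 in replicate 1 and 3.73 in replicate 2. Uqcr11, lowest by the mean of the libraries, had 1.65 in replicate 1 and 2.01 in replicate 2, where Uqcrb (1.71) and Uqcrc2 (1.91) were lower. The values of Uqcr11 did not overlap those of Uqcrq or Uqcrfs1, again genes from opposite ends of the ranking. Uqcrq and Uqcrfs1 overlapped each other.

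Complex IV, cytochrome c oxidase, had the lowest medians over its 12 open members, 2.30 in replicate 1 and 2.21 in replicate 2. These 12, grouped by symbol, include Cox7a2l and the restricted Cox6b2 and Cox7a1, and leave Ndufa4 with complex I. Whether complex IV stays lowest under another grouping was not tested. Cox6c had 4.17 in replicate 1 and 3.80 in replicate 2 and stood above Cox6a1, the next. Besides the restricted isoforms, Cox7c was lowest, with 1.27 in replicate 1 and 1.15 in replicate 2. Values of Cox7c and Cox6b1 lay close together in both libraries.

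Complex V had medians of 2.73 in replicate 1 and 2.46 in replicate 2 over 17 open members. Atp5mpl, a small membrane subunit, had 3.64 in replicate 1 and 3.70 in replicate 2, and lay within the spread of Atp5g2. The lowest open member was Atp5o, the stalk subunit OSCP, with 1.89 in replicate 1 and 1.71 in replicate 2. Atp5j had 2.39 and 1.87, the same values as Gabpa, since the shared window holds one strongest peak for both.

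The libraries gave like values for the members. The ratio of replicate 1 to replicate 2 ran between 0.699 and 1.54, and 72 of 75 open members (96%) were within 1.5-fold, against 94.3% of all open genes. Replicate 1 was higher in 68% of members and in 65.6% of all genes. On the log2(value + 0.5) scale the median difference of replicate 1 minus replicate 2 was 0.03 for the members, after removal of the all-gene shift of 0.09. The 3 members most above that shift in replicate 1 were Atp5g1 (0.39), Ndufc2 (0.36) and Ndufa5 (0.36). Those most below it were Atp5h (-0.52), Ndufb10 (-0.34) and Ndufa8 (-0.32). Atp5h, a stator subunit, had values of 1.99 in replicate 1 and 2.85 in replicate 2. Across genes, Spearman's rho between the libraries was 0.813 over the 75 members and 0.927 over the 13300 open genes, whose values span a wider range; genes are not independent replicates. The strongest peaks of the 2 libraries overlapped at 73 members (97.3%), near the 94.0% of all open genes.

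**Figure D2:**
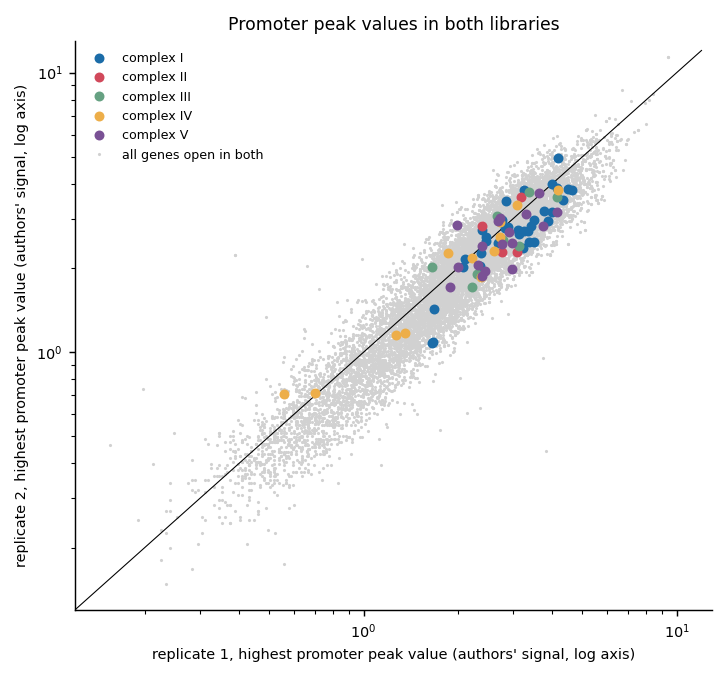
Highest promoter peak value in replicate 1 (x axis) and replicate 2 (y axis), both log axes in the authors' signal units; coloured points are the 75 open members by complex, grey points the 13300 genes open in both libraries, and the line marks equal values. The members lie between 0.558 and 4.96, most of them in the upper part of the grey cloud and none at its upper end.

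Member promoters were compact. Their strongest peak had a median width of 420 bp in replicate 1 and 280 bp in replicate 2, against 400 and 340 bp over all open genes, so that the libraries differed in which set was wider. The summed width of peaks in the window was lower for members in both libraries, 480 bp in replicate 1 and 400 bp in replicate 2, against 620 and 507.5 bp for all open genes. The median number of peaks per window was 1 in both libraries for the members and 2 in both for all open genes. None of the 75 strongest peaks had a second copy in the genome at 90% identity or more over at least 80% of its length.

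Footprints in these promoters numbered 602 in replicate 1 and 487 in replicate 2, with a median length of 9 bp in both. The median open member had 7 in replicate 1 and 6 in replicate 2, against 8 and 6 for all open genes. Atp5g2 had the most by the mean of the libraries, with 19 in replicate 1 and 24 in replicate 2. Ndufa13, an accessory subunit also known as GRIM-19, had 18 and 14, Ndufa11 had 14 and 17, and Uqcrq had 13 and 15. Atp5d, the delta subunit, had 26 in replicate 1 but 6 in replicate 2, and its window held 3712 bases with FDR under 0.05 in replicate 1 against 854 in replicate 2. The windows of Ndufa13, Ndufa11, Uqcrq and Atp5d overlap that of another protein-coding gene, and that of Atp5g2 does not.

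Footprints of members lay closer to the start than those of all genes. Within 100 bp of a TSS were 52.3% of them in replicate 1 and 58.5% in replicate 2, against 44.0% and 50.5% over all genes. Footprints of one library overlapped one of the other in 44.7% of cases in replicate 1 and 55.4% in replicate 2, against 35.8% and 46.2%. Many footprints called in 1 library were not called in the other, and the counts of footprinted words below need a footprint in both.

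**Figure D3:**
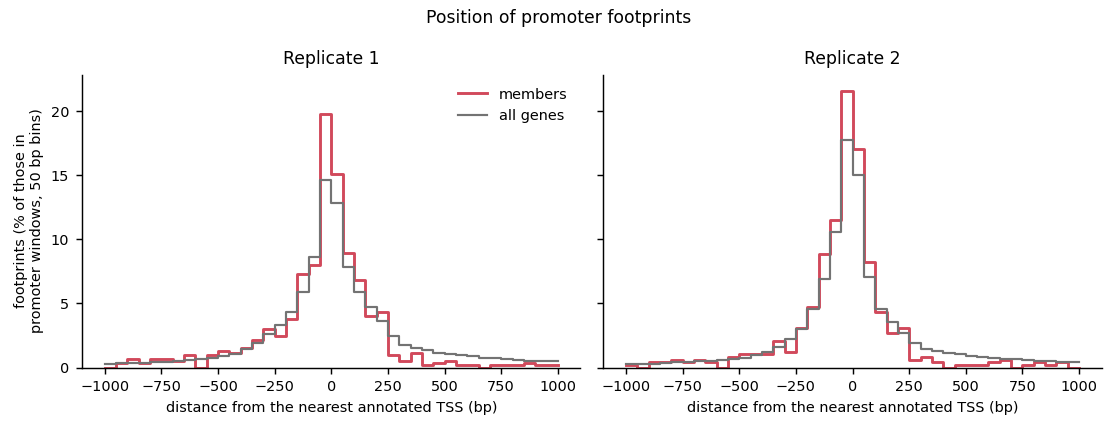
Share of promoter footprints by distance from the nearest annotated TSS in bins of 50 bp, for members (red) and all genes (grey), replicate 1 left and replicate 2 right. In both libraries the members' curve is higher at the start and lower in most bins beyond 250 bp downstream.

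A member often shared its promoter with another gene. A protein-coding gene started on the opposite strand within 1.0 kb upstream at 28 of 82 records (34.1%), against 11.3% of all genes. Among genes open in both libraries the gap was smaller, with 37.3% of members against 16.8% of all open genes. For 25 of the 28 the partner was within 200 bp. Complex I had 13 such genes, complex II had 3 of its 4, complex III had 4, complex V had 7 and complex IV had 1. Several partners also serve mitochondria or protein synthesis. Sdhd starts 98 bp from Timm8b, a chaperone of the mitochondrial intermembrane space, and Ndufs6 51 bp from Mrpl36, a mitochondrial ribosomal protein. Ndufa7 starts 10 bp from Rps28, a ribosomal protein, and Ndufs1 3 bp from Eef1b2, a translation elongation factor. The 1 complex IV gene, Cox4i1, starts 101 bp from Emc8.

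Members with and without a partner had like values. Those with a partner had medians of 2.75 in replicate 1 and 2.73 in replicate 2, against 2.84 and 2.58 for the 47 open members without one, and the direction differed between the libraries. Over all genes those with a partner had 2.88 and 2.68, against 2.13 and 2.00 without. The difference between these differences was not tested.

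Matches to 10 fixed words were sought on both strands in promoter peaks shared by the libraries. A match counted as footprinted when its middle base lay in a footprint in both. A match is a description of letters and not of a bound factor. At least one footprinted match to any word was present at 27 of 75 open members, against 24.7% of all open genes. The NRF1 word was in the peaks of 22 members (29.3%), against 16.8% of all open genes. It was footprinted at 12 members (16%), against 8.86% of all open genes. By match the gap was smaller, with 54.5% of the NRF1 words in members footprinted, against 48.4% over all genes. For counts by single library, a match in that library's own peaks sufficed, shared or not. Replicate 1 then gave 18 members, against 12.3% of all open genes, and replicate 2 gave 15, against 11.8%.

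The 12 members with a footprinted NRF1 word came from every complex. They were Ndufa8, Ndufa13, Ndufb4, Ndufs5 and Ndufs6 of complex I, Sdha of complex II, Uqcr11 and Uqcrc1 of complex III, Cox6c of complex IV, and Atp5c1, Atp5g2 and Atp5mpl of complex V. Ndufb4 had 3 footprinted matches, at 102 bp upstream and 10 bp downstream of the record's start, and 20 bp upstream of another annotated start. Sdha had them 11 and 7 bp upstream of different annotated starts, and Atp5c1, the gamma subunit, 1 bp upstream. Cox6c had one 23 bp downstream and Uqcrc1, a core subunit, one 32 bp upstream. Ndufa13 was the exception in position, with matches 777 and 848 bp upstream. Its promoter window overlaps that of another protein-coding gene, and to which of the genes these matches belong was not tested. By the mean of the libraries, promoter values of these 12 ran between 1.83 at Uqcr11 and 4.56 at Ndufa8. Ndufb4 had 2.11 in replicate 1 and 2.15 in replicate 2, and Ndufs5 had 2.46 and 2.59. In the RefSeq promoters, which run from 250 bases before to 50 after the start, the NRF1 word was in 29.2% of the 65 matched members and 9.36% of 15803 matched genes. Of these, 63 members and 10441 genes were open in both libraries, so this background holds a larger share of closed promoters than the members do.

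YY1 and ERR words were in a larger share of member peaks than of all open genes, and few matches were footprinted in either set. The YY1 word AANATGGC was in the peaks of 25 members (33.3%), against 12.1% of all open genes. It was footprinted in both libraries at 3 members (4%), namely Atp5g2, Ndufs3 and Uqcrb, against 1.45% of all open genes. By match, 10.7% of the YY1 words in members were footprinted, against 11.2% over all genes. The ERR word was in the peaks of 13 members (17.3%), against 3.47%, and 76.9% of its matches lay within 100 bp of a start, against 31.4% over all genes. None of its 13 matches was footprinted in both libraries, against 3.31% of the matches over all genes. By gene these were 0 members, against 0.12% of all open genes. Counted in its own peaks, shared or not, replicate 1 had 3 members with a footprinted match, against 0.526% of all open genes. Replicate 2, counted likewise, had 2, against 0.316%. In RefSeq promoters the YY1 word was in 20% of members, against 6.73% of genes, and the ERR word in 12.3%, against 3.89%.

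For the remaining words the shares in peaks and in RefSeq promoters did not always point the same way. The 2 shares have unlike backgrounds. Those in peaks are of genes open in both libraries, and those in RefSeq promoters are of all matched genes, open or not. The ETS word was in the peaks of 19 members (25.3%), against 20.2% of all open genes, and was footprinted at 1 (Atp5j), against 2.2%. In RefSeq promoters, a window nearer the start, it was in 23.1% of members, against 12.5% of genes. The Atp5j sequence shows its footprint ending inside the word. The SP word GGGGCGGGG was in the peaks of 11 members (14.7%), against 24.3%, but footprinted at 7 (9.33%), against 8.03%. CCAAT was in the peaks of 25 members (33.3%), against 40.3%, and footprinted at 4 (5.33%), against 3.69%. The cyclic-AMP response element TGACGTNA was in the peaks of 4 members, against 5.77% of all open genes, and footprinted at 3 (4%), against 2.63%. Those were Ndufa10, Ndufb2 and Uqcrfs1, each within 100 bp of a start. In RefSeq promoters TGACGTNA was in 6.15% of members, against 3.87% of genes, the SP word in 18.5%, against 16.4%, and CCAAT in 43.1%, against 38.6%. The ZNF143 word ACTACAATT was in no member peak and in 2 of 65 member RefSeq promoters (3.08%), against 0.62% of genes. CACGTG was in 9.23%, against 8.17%, and TATAAA in 10.8%, against 13.1%. The CpG observed-to-expected ratio of RefSeq promoters had a median of 0.807 for members and 0.614 for all genes, and of 0.823 and 0.769 among those open in both libraries.

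**Figure D4:**
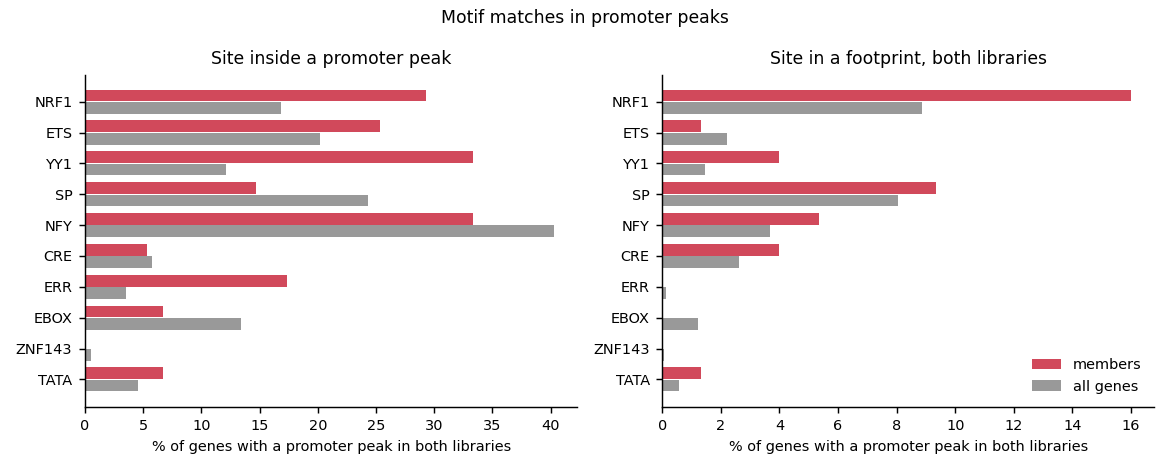
Share of genes open in both libraries that hold each word in a shared peak (left) and in a footprint in both libraries (right), members in red and all genes in grey; the 2 panels have different scales. NRF1, YY1 and ERR words were in 29.3%, 33.3% and 17.3% of members, and were footprinted in 16%, 4% and 0% of members.

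Distal peaks, which overlap no promoter window of a protein-coding gene and lie in a gene or within 10 kb of it, were not more frequent around members than around all genes. They were present in both libraries at 41 of 82 records (50%), against 50.6% of all genes. With the shorter peak list the members were below all genes, with 21 records (25.6%), against 32.4%. Member genes are short, with a median of 7565 bp against 17629 bp, and had a mean of 1.41 distal peaks in replicate 1 and 1.18 in replicate 2, against 2.34 and 1.81 for all genes. Ranked among the 200 genes nearest in length, their median percentile was 59.1, against 47 for all genes. Neither library had a distal peak at 30 members (36.6%), against 35.6% of all genes. Of the distinct distal peaks near members, 60.5% of 114 in replicate 1 and 73.7% of 95 in replicate 2 overlapped one of the other library.

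The members with the most distal peaks differed in how these lay. Ndufb7 had 11 in replicate 1 and 8 in replicate 2, all downstream of the gene and with values of at most 0.622 in replicate 1. Ndufa4l2, with no promoter peak, had 8 and 9, of which 8 in each library were upstream, with values up to 3.05 in replicate 1 and 3.76 in replicate 2. The longer record of Atp5o had 7 and 9 spread over its 242585 bp, where the median of genes of like length was 5.5. Atp5d had 11 and 5. Ndufb9 had 19 in replicate 1, between chr15:58934911 and 58946458, and 0 in replicate 2. Those 19 peaks had values between 0.0777 and 0.678, all below the gene's promoter values of 2.47 in replicate 1 and 2.501 in replicate 2.

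**Figure D5:**
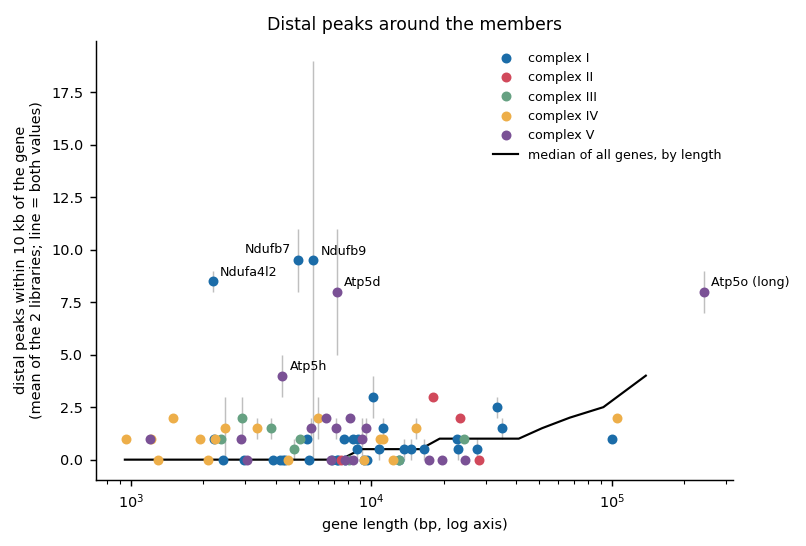
Distal peaks in or within 10 kb of each member (y axis, mean of the libraries; vertical lines join both values) against gene length (x axis, log, bp), by complex; the black line is the median over all genes by length. Most members lie between 0 and 3, and Ndufb9 spans the range from 0 in replicate 2 to 19 in replicate 1.

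Genes that serve the complexes without being subunits had open promoters as well. Of 47 assembly factors and inhibitors, 46 had a promoter peak in both libraries, against 63.9% of all genes. Their medians were 3.10 in replicate 1 and 2.77 in replicate 2, above the 2.78 and 2.59 of the members. Over all open genes the medians were 2.26 and 2.15. The assembly factor without a promoter peak was Sdhaf1, which helps insert iron-sulfur clusters into complex II and had none in either library. Cytochrome c, the carrier between complexes III and IV, had 3.40 in replicate 1 and 3.12 in replicate 2 at the somatic gene Cycs, and no promoter peak at the testis gene Cyct. All 12 regulators were open in both libraries, against the same 63.9% of all genes. Ppargc1a, the PGC-1α coactivator, was lowest with 0.678 in replicate 1 and 0.722 in replicate 2. Nrf1 had 3.38 and 3.20, Esrra had 3.50 and 3.81, Gabpb1 had 4.36 and 3.12, and Yy1 had 3.58 and 3.50. Tfam, which packages and transcribes mitochondrial DNA, had 2.59 and 2.66, Tfb1m had 4.14 and 3.26, Tfb2m had 3.17 and 3.52, and the mitochondrial RNA polymerase Polrmt had 2.37 and 2.51. The coactivators Pprc1 and Ppargc1b had 2.69 and 2.33, and 1.96 and 2.01. In a mixed tissue, fewer cells with an open promoter and less cutting per cell cannot be told apart, and this holds for every low value above.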

How the data were processed

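DNase-seq peak, footprint and FDR lists of 2 libraries were used as the authors deposited them. Per the file headers and the inventory deposited with each library, coordinates are mm10 and each library's lists derive from its own alignments, without pooling. Aligner, callers and versions are not stated there. The authors' signal, a coverage-like height of unstated scaling, served as peak value; it came in whole steps of 0.00707 (replicate 1) and 0.00645 (replicate 2), to 2% of a step, and the depth is unknown. The p-value column is the authors' FDR, in deposited files that list only bases under 0.05. The constant column of the footprint lists was not used.

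Genes and starts came from GENCODE M21 on GRCm38.p6, and promoter sequences from RefSeq on the same assembly (65 members matched by symbol or identifier with a start within 1.0 kb). Overlap of at least 1 bp counted. Promoter windows ran 1.0 kb to each side of every annotated start, and the pseudocount was 0.5. No test was made, since 1 group of 2 libraries allows none. Values are descriptions beside the same over all autosomal protein-coding genes. The members, words and lists were chosen with earlier results of these data known, and the NRF1 and ZNF143 words were shortened before any search. The genes named were the highest 2 and lowest of each complex, members without a peak, isoform pairs, the Sdh genes, the top 5 by footprints and distal peaks, the 3 largest library differences each way, members with a footprinted NRF1 word, regulators, and other pathway genes without a peak; partners and word examples were chosen after their values were seen. Counting and word search were tested on simulated data. Tools were Python 3.11.15, numpy 2.4.6, pandas 2.3.3, pysam 0.24.0, bedtools 2.31.1, samtools 1.23.1, blastn 2.17.0 and matplotlib 3.10.9.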

Additional observations from a re-analysis of the deposited data

How the results depend on the processing

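Of 65 alternatives over 9 results, 52 stayed within 1.5 times a count or within the spread of the libraries, and 13 moved. The 52 include medians with a library left out, which could not have moved. Leaving out members that share a promoter window gave 41 with a promoter peak, 40 with a promoter footprint, 13 with a footprinted word and 7 with a footprinted NRF1 word, by construction from fewer genes. Distal peaks in both libraries were at 21 members with the shorter list (32.4% of all genes), at 6 in the gene body alone (31.0% of all genes) and at 72 within 50 kb (79.9% of all genes). Footprinted words were at 15 members when the whole word had to lie in a footprint and at 64 when a peak was enough, and the NRF1 word was at 22 when a peak was enough. The median number of footprints was 5.5 when they also had to lie in a peak, and the median promoter value was 3.33 as a sum over peaks. Leaving out each library in turn gave 75 to 75 members with a promoter peak, 74 to 75 with a footprint, 46 to 47 with a distal peak, 38 (without replicate 1) to 41 (without replicate 2) with a footprinted word, against 27 in both, and 15 to 18 with a footprinted NRF1 word. It gave median values of 2.59 to 2.78, 6 to 7 footprints and widths of 280 to 420 bp. Each of these was bound to stay within the spread, because the reported value is the mean of the libraries' medians. They are no measure of stability. No share of all genes was counted for the 40, 13, 7, 15, 64, 38 and 41 members above. These counts therefore do not compare members with other genes. With a library left out, the word counts took matches in the other library's own peaks, shared or not. The NRF1 count was added after the data were seen. A promoter window of 2.5 kb gave 77 members with a promoter peak in both libraries, against 66.4% of all genes. The list of records without a promoter peak thus depends on the window. No paired analysis was possible because the design holds 1 group. Unknown depth limits every absence of a peak or footprint.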
